A study of Mus musculus with 4 samples.

Results

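The regulatory T cell program is described here through 9 genes, FOXP3, IL2RA, IKZF2, CTLA4, TNFRSF18, TNFRSF4, TNFRSF9, CCR8 and LAYN, out of 36601 genes counted. The genes were chosen by name, and each has 1 row in both gene lists, so all 9 members are accounted for. The data were human CD45+ cells sorted from tumors of MDA-MB-231, a human breast cancer line, grown in the mammary fat pad of MISTRG mice. MISTRG mice carry human genes for M-CSF, GM-CSF and IL-3 and were engrafted with fetal CD34+ stem cells, so the immune cells were human in a mouse host. All 14 mice, 7 untreated and 7 given maraviroc, were of this kind and carried this tumor. Maraviroc, a small-molecule drug, was given in the drinking water. Single cells were captured in 2 droplet reactions of 3' RNA-seq, and the mice of each reaction were told apart by 7 hashtag antibodies, whose names in the deposited feature lists give the treatment. Reaction 1 held 4 untreated and 3 maraviroc mice and reaction 2 held 3 and 4.

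Regulatory T cells hold other T cells in check. FOXP3 is the transcription factor that defines their lineage, and IKZF2 (Helios) is a second factor that stabilizes it. Their surface carries IL2RA (CD25), the chain that gives the interleukin-2 receptor its high affinity, and CTLA4, which takes the costimulatory ligands CD80 and CD86 away from antigen-presenting cells. The TNF receptor family members TNFRSF18 (GITR), TNFRSF4 (OX40) and TNFRSF9 (CD137) pass costimulatory signals, and CCR8 and LAYN are known as markers of regulatory T cells within tumors. None of the 8 genes other than FOXP3 is exclusive to regulatory T cells, since activated T cells, NK cells and mature dendritic cells can carry several of them.

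Cells were sorted into classes by counting unique molecular identifiers (UMIs, 1 per captured transcript) of marker genes in each cell. Of 19817 kept cells, 4903 were T cells, namely 2000 in reaction 1 and 2903 in reaction 2. T cells with CD8A or CD8B UMIs were called CD8 T cells (1582 cells). Those without CD8 UMIs were called FOXP3+ with at least 1 FOXP3 UMI (1018 cells, 20.8% of T cells), then CXCL13+ with at least 1 CXCL13 UMI (321 cells), and the rest were other T cells (1982 cells). The FOXP3+ gate therefore uses FOXP3, and the FOXP3 levels across the T cell gates are a description of the gates. The other 8 genes were used by no gate. A UMI of FOXP3 does not prove a regulatory T cell. The gate had CD3D at 939 CPM and TRAC at 644 CPM, but T cells were picked by UMIs of these genes, so these levels follow from the gate. CD4, which no gate used, was at 192 CPM against 30.3 CPM in CD8 T cells. Levels are in CPM, the UMIs of a gene per 1000000 UMIs of the same cells.

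Reaction 1 gave 133089612 UMIs and reaction 2 gave 175447534, with a median of 3020 and 9691.5 UMIs per kept cell. The loss at hashtag assignment was unequal. Of the barcodes within the gene and mitochondrial limits, 11917 of 27645 were kept as singlets in reaction 1 and 7900 of 10161 in reaction 2. Per mouse, 758 to 3030 cells were kept. The medians in reactions 1 and 2 were 6227.5 and 6953 UMIs in the FOXP3+ gate, 5853 and 7206.5 in CD8 T cells, 3697 and 6944 in other T cells and 2847 and 9504 in CXCL13+ T cells. The reactions shared 136 barcodes, 31 of them among kept cells. Of the other T cells, 1250 (63.1%) had at least 3 UMIs of 5 NK genes, with GNLY, a cytotoxic granule protein, at 11333 CPM and CD3D at 362 CPM. The remaining 732 had GNLY at 37.2 CPM, CD3D at 711 CPM and CD4 at 153 CPM. The tested members are therefore also compared with these 732 cells alone, a restriction chosen after the data had been seen. Fewer cells of a type and less RNA per cell cannot be told apart in UMIs summed over all T cells.

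The 8 genes that no gate used had their highest level in the FOXP3+ gate, in reaction 1 and in reaction 2 alike. FOXP3 was also highest there, which follows from the gate. How many of all genes peak in this gate was not counted. In order of role, the transcription factors FOXP3 and IKZF2 reached 411 and 1298 CPM, IL2RA 695 CPM and CTLA4 429 CPM. The TNF receptors TNFRSF18, TNFRSF4 and TNFRSF9 reached 662, 699 and 201 CPM, CCR8 31.4 CPM and LAYN 193 CPM. The gates that came second differed between the genes. CD8 T cells were second for IKZF2, TNFRSF9, LAYN and FOXP3, CXCL13+ T cells for CTLA4, TNFRSF18 and TNFRSF4, and other T cells for IL2RA and CCR8. The ratio of the highest to the second gate was 12.6 for IL2RA, 6.93 for CCR8, 4.24 for CTLA4, 3.14 for LAYN and 2.60 for TNFRSF4. It was 1.74 for IKZF2 and TNFRSF18 alike and 1.31 for TNFRSF9. These orders and ratios take the other T cells whole. The 732 with fewer than 3 NK UMIs had CTLA4 at 168 and TNFRSF4 at 282 CPM, above the 101 and 268 CPM of CXCL13+ T cells. They had IL2RA at 120 and CCR8 at 8.42 CPM, against 55.2 and 4.54 CPM in all other T cells. With these cells alone, the ratios of these genes would be smaller. The FOXP3+ gate, 5.14% of kept cells with 5.45% of their UMIs, held 64.5% of all IL2RA UMIs and 61.8% of all CCR8 UMIs but 27.6% of TNFRSF9 UMIs and 32.0% of IKZF2 UMIs. With every barcode within the gene and mitochondrial limits in place of hashtag singlets, 1313 cells fell in the gate, and its levels were 382 CPM for FOXP3, 635 CPM for IL2RA and 180 CPM for TNFRSF9, again the highest of all gates.

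**Figure D1:**
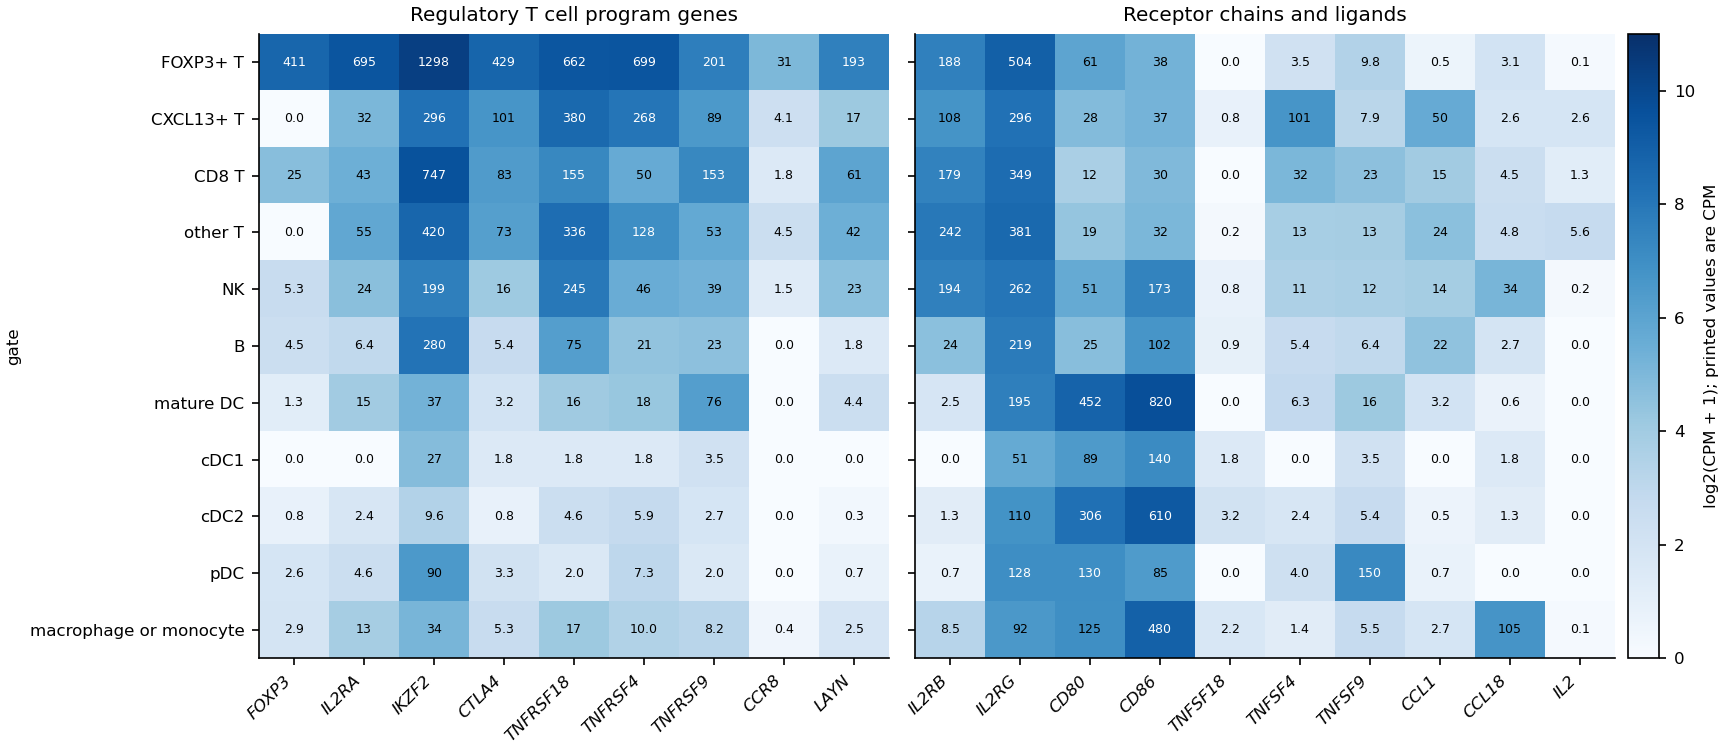
Level of the 9 genes (left) and of their receptor chains and ligands (right) in 11 cell gates, each summed over all its cells; the color is log2(CPM + 1) and the printed values are CPM. The FOXP3+ row holds the highest value of each of the 9 columns on the left, which for FOXP3 follows from the gate. The ligands CD80 and CD86 peak in mature dendritic cells.

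FOXP3 itself ranged from 364 to 550 CPM, with a median of 430 CPM, over the 12 mice with at least 10 FOXP3+ cells. It was 0 in CXCL13+ and other T cells by the gates. In CD8 T cells, which were gated on CD8 first, FOXP3 was at 24.9 CPM and came from 110 of 1582 cells (6.95%). Those 110 cells, from 13 mice, had IL2RA at 323 CPM against 18.4 CPM in CD8 T cells without FOXP3 UMIs, CTLA4 at 342 against 60.3 CPM, TNFRSF4 at 342 against 24.5 CPM and CCR8 at 17.9 against 0.433 CPM. Their CD4 was at 111 against 23.3 CPM, and CD8A at 179 against 274 CPM. IKZF2 differed less, at 911 against 732 CPM. The part of doublets in these 110 cells was not tested. FOXP3 was at 5.28 CPM in NK cells and 2.91 CPM in macrophages or monocytes.

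Within the FOXP3+ gate, cells with more FOXP3 UMIs had more of the other genes. IL2RA was at 451 CPM in the 303 cells with 1 FOXP3 UMI, 579 CPM in the 366 cells with 2 or 3 and 928 CPM in the 349 cells with 4 or more. TNFRSF9 went from 145 to 169 and 259 CPM, TNFRSF4 from 560 to 641 and 824 CPM, and IKZF2 from 1055 to 1350 and 1391 CPM. CTLA4, at 369, 434 and 459 CPM, and LAYN, at 155, 192 and 215 CPM, had the same order. The sets also differed in depth, with medians of 5430, 6740 and 8184 UMIs per cell, and in GNLY, at 1137, 245 and 238 CPM. These values are over cells pooled from all mice and were given no test.

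IKZF2, the second transcription factor, was between 656 and 1560 CPM in FOXP3+ T cells, with a median of 1304 CPM over 12 mice. It was between 234 and 550 CPM in other T cells of the same mice, so the gates did not overlap. Its difference within mice was 1.60 ± 0.08 on the log2 scale (edgeR quasi-likelihood test with the mouse as block, adjusted p = 9.26e-13, higher in 12 of 12 mice). IKZF2 was also carried by CD8 T cells, at 444 to 1171 CPM in the same 12 mice, overlapping the FOXP3+ range. There the difference was 0.76 ± 0.09 (edgeR adjusted p = 7.80e-07), and IKZF2 was higher in FOXP3+ cells in 11 of 12 mice. CXCL13+ T cells held the least IKZF2 of the T cell gates, at 85.7 to 591 CPM over 9 mice, and the difference of FOXP3+ cells from them was 2.01 ± 0.19 (edgeR adjusted p = 1.43e-07). Among cells that are not T cells, B cells had IKZF2 at 280 CPM and NK cells at 199 CPM.

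IL2RA had the largest difference from other T cells among the tested members that no gate used. FOXP3+ T cells had 275 to 1132 CPM, with a median of 602 CPM, whereas other T cells of the same 12 mice had 15.9 to 86.1 CPM, CD8 T cells 2.78 to 144 CPM and NK cells 5.16 to 56.1 CPM. None of these ranges overlapped with that of the FOXP3+ gate. The log2 difference was 3.41 ± 0.14 against other T cells (edgeR adjusted p = 6.64e-14), which ranked IL2RA 4 among 8330 genes tested, and 3.96 ± 0.30 against CD8 T cells (edgeR adjusted p = 8.24e-10). The other chains of the interleukin-2 receptor were less uneven. IL2RG, the common gamma chain, was at 504 CPM in FOXP3+ cells and 381 CPM in other T cells, a log2 difference of 0.47 ± 0.05 (edgeR adjusted p = 1.72e-07) that was 0.46 ± 0.09 against the 732 cells. IL2RB, the beta chain, was at 188 and 242 CPM and its difference of -0.18 ± 0.11 did not pass the test (edgeR adjusted p = 0.191), but against other T cells with fewer than 3 NK UMIs it was 1.43 ± 0.14 (edgeR adjusted p = 7.00e-09). The ligand IL2 was scarce, with 74 UMIs in 12 other T cells and 1 UMI in the FOXP3+ gate.

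CTLA4 was at 277 to 583 CPM in FOXP3+ T cells, with a median of 395 CPM, and at 7.94 to 150 CPM in other T cells, 27.8 to 136 CPM in CD8 T cells and 2.60 to 31.3 CPM in NK cells. The FOXP3+ range lay above each of these in the same 12 mice. The log2 differences were 2.50 ± 0.16 against other T cells (edgeR adjusted p = 2.53e-11), 2.46 ± 0.14 against CD8 T cells (edgeR adjusted p = 2.09e-11) and 2.0 ± 0.13 against CXCL13+ T cells in 9 mice (edgeR adjusted p = 4.62e-10). Its ligands lay outside the T cells. CD86 was at 820 CPM in mature dendritic cells, 610 CPM in cDC2 and 480 CPM in macrophages or monocytes, and CD80 was at 452, 306 and 125 CPM. CD80 was also at 61.4 CPM in FOXP3+ T cells against 19.4 CPM in other T cells, a log2 difference of 1.47 ± 0.22 (edgeR adjusted p = 9.97e-06) that was 0.52 ± 0.22 (edgeR adjusted p = 0.0855) against other T cells with fewer than 3 NK UMIs.

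**Figure D2:**
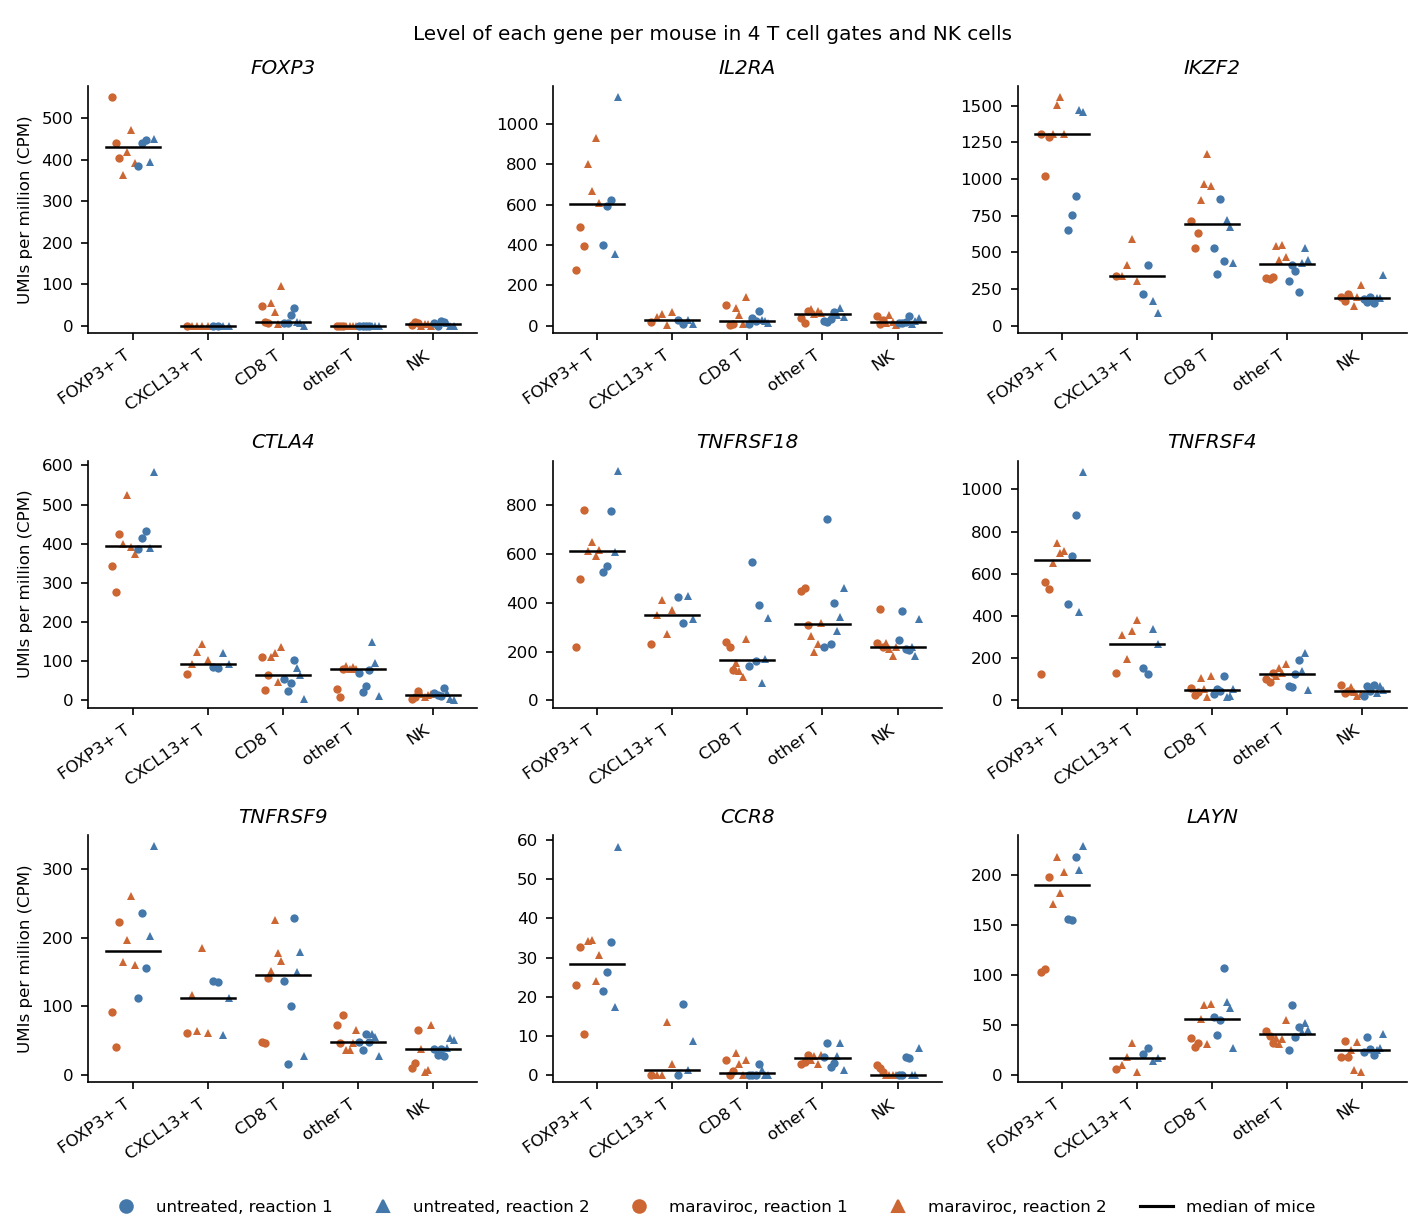
CPM of each gene (vertical axes, 1 panel per gene) in 4 T cell gates and NK cells; points are mice with at least 10 cells in the gate, color is the treatment, shape the reaction, and lines are medians. IL2RA, CTLA4 and CCR8 of the FOXP3+ gate sit above every mouse of CD8 T, other T and NK cells, while TNFRSF9 of the FOXP3+ gate overlaps with CD8 T cells. CCR8 did not pass the filter on low counts, so its separation is a description.

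Among the 3 TNF receptors, TNFRSF18 was at 218 to 937 CPM in FOXP3+ T cells, with a median of 609 CPM, and at 199 to 460 CPM in other T cells, an overlap that came from maraviroc mouse 1. In that mouse, TNFRSF18 was at 218 CPM in its 12 FOXP3+ cells and 446 CPM in other T cells. The log2 difference of TNFRSF18 was 1.10 ± 0.13 against other T cells (edgeR adjusted p = 5.73e-07, higher in 11 of 12 mice), 2.03 ± 0.18 against CD8 T cells (edgeR adjusted p = 9.12e-09) and 1.41 ± 0.15 against NK cells (edgeR adjusted p = 1.02e-07). NK cells held TNFRSF18 at 182 to 375 CPM in those mice. Its ligand TNFSF18 was at most 3.21 CPM in any gate.

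TNFRSF4 was at 126 to 1084 CPM in FOXP3+ T cells, with a median of 668 CPM, against 66.8 to 225 CPM in other T cells and 15.6 to 118 CPM in CD8 T cells. The lowest FOXP3+ value was again maraviroc mouse 1, and the next was 421 CPM. The log2 differences of TNFRSF4 were 2.23 ± 0.12 against other T cells (edgeR adjusted p = 1.67e-12) and 3.75 ± 0.23 against CD8 T cells (edgeR adjusted p = 4.41e-11), both higher in 12 of 12 mice. CXCL13+ T cells were at 127 to 384 CPM in 9 mice, with a difference of 1.36 ± 0.17 (edgeR adjusted p = 4.86e-06). CXCL13+ T cells also had the most of the ligand TNFSF4 (OX40 ligand), at 101 CPM against 3.51 CPM in FOXP3+ cells.

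TNFRSF9 was at 40.8 to 333 CPM in FOXP3+ T cells, with a median of 181 CPM, and at 47.3 to 228 CPM, with a median of 150 CPM, in CD8 T cells of the same mice. The ranges overlapped, and TNFRSF9 was higher in FOXP3+ cells in 7 of 12 mice. The log2 difference of 0.37 ± 0.13 passed the test with the mouse as block (edgeR adjusted p = 0.0232) but not without the block (0.44, edgeR adjusted p = 0.0825), and not with DESeq2 (0.35, DESeq2 adjusted p = 0.0526). Without any 1 of untreated mice 3, 5 and 6 and maraviroc mouse 6, it was 0.29 to 0.32 (edgeR adjusted p = 0.0608 to 0.0741), and in reaction 1 alone it was 0.32 (edgeR adjusted p = 0.363). Against other T cells, at 36.4 to 87.8 CPM, the TNFRSF9 difference was 1.79 ± 0.15 (edgeR adjusted p = 1.93e-09, higher in 11 of 12 mice). Against CXCL13+ T cells the TNFRSF9 difference was 0.96 ± 0.19 (edgeR adjusted p = 0.000659), but 0.52 ± 0.35 in reaction 1 alone (edgeR adjusted p = 0.445).

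CCR8 was at 10.5 to 58.3 CPM in FOXP3+ T cells, with a median of 28.4 CPM, from 251 UMIs in 171 of 1018 cells. Other T cells of the same mice had 2.11 to 8.29 CPM, CD8 T cells 0 to 5.67 CPM and NK cells 0 to 4.71 CPM, so no FOXP3+ value overlapped with any of the 3. CCR8 had too few UMIs to pass the filter on low counts in these comparisons, so it has no call. Of the genes that passed, 1.78%, 1.64% and 3.46% lay wholly above other T, CD8 T and NK cells. CCR8 is not among those genes, so its separation is a description. Fitted without the filter, its log2 difference was 2.64 ± 0.23 against other T cells and 3.85 ± 0.27 against CD8 T cells, each with CCR8 higher in 12 of 12 mice. No CCR8 UMI was found in 116 mature dendritic cells, 257 cDC2, 126 plasmacytoid dendritic cells or 160 B cells. Its ligand CCL1 was at 49.7 CPM in CXCL13+ T cells, and CCL18, also a ligand of CCR8, was at 105 CPM in macrophages or monocytes.

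LAYN, a hyaluronan receptor, was at 103 to 228 CPM in FOXP3+ T cells, with a median of 190 CPM. Other T cells had 25.4 to 55.3 CPM, with no overlap, and CD8 T cells had 27.8 to 107 CPM, overlapping by untreated mouse 4 alone, whose CD8 T cells had 107 CPM. The log2 differences of LAYN were 2.23 ± 0.11 against other T cells (edgeR adjusted p = 4.17e-13) and 1.75 ± 0.11 against CD8 T cells (edgeR adjusted p = 5.53e-11), and LAYN was higher in FOXP3+ cells in 12 of 12 mice in both. CXCL13+ T cells held the least, 2.93 to 31.6 CPM in 9 mice, and the difference from them was 3.65 ± 0.22 (edgeR adjusted p = 3.54e-10). LAYN did not pass the filter in CXCL13+ against other T cells with fewer than 3 NK UMIs. Its test against CXCL13+ T cells rested on the FOXP3+ gate, so this difference is a description.

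As a group, all 7 members that no gate used and that passed the filter on low counts were called higher (edgeR adjusted p under 0.05) in FOXP3+ T cells than in other T cells, where 19% of the 8330 genes tested were called higher by the same rule and 18.3% lower. The ranges of 4 of the 7, IL2RA, IKZF2, CTLA4 and LAYN, lay wholly above those of other T cells, as was so for 1.78% of the genes tested. The same 7 of 7 were called higher against CD8 T cells (21.3% of 8125 genes called higher and 20.2% lower), against CXCL13+ T cells in 9 mice (15.1% and 15.4% of 6272 genes) and against NK cells (23.2% and 23.8% of 6698 genes). IL2RA, CTLA4 and LAYN did not pass the filter in the treatment comparison within NK cells. Against NK cells they were tested through the FOXP3+ gate, where they are high, so their calls and ranges there are a description. The same limit holds for LAYN against CXCL13+ T cells. Against CD8 T cells the ranges of 3 of the 7, IL2RA, CTLA4 and TNFRSF4, lay wholly above, beside 1.64% of the genes tested. Against CXCL13+ T cells 6 of the 7 lay wholly above, all but TNFRSF9, beside 4.02%. Against NK cells 5 of the 7 did, all but TNFRSF18 and TNFRSF9, beside 3.46%. Of these 5, IKZF2 and TNFRSF4 also passed the filter within NK cells. The differences from other T cells ranged from 1.10 to 3.41 on the log2 scale, with the median over all genes tested at 0.00061.

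Against the 732 other T cells with fewer than 3 NK UMIs, all 7 were again called higher, beside 874 genes called higher and 970 lower of 6413. The log2 difference was 2.34 ± 0.13 for IL2RA, 1.33 ± 0.12 for CTLA4 and 1.08 ± 0.14 for TNFRSF4 (edgeR adjusted p = 1.01e-12, 2.64e-09 and 2.00e-06). IKZF2, TNFRSF18, TNFRSF9 and LAYN had 1.31 ± 0.10, 1.2 ± 0.14, 1.83 ± 0.22 and 2.07 ± 0.14. LAYN did not pass the filter in CXCL13+ T cells against these 732 cells. It was tested here through the FOXP3+ gate, where it is high, so its call is a description. The levels were 120 CPM of IL2RA, 168 CPM of CTLA4 and 282 CPM of TNFRSF4 in the cells with fewer than 3 NK UMIs, and 24.4, 28.0 and 54.8 CPM in those with 3 or more.

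**Figure D3:**
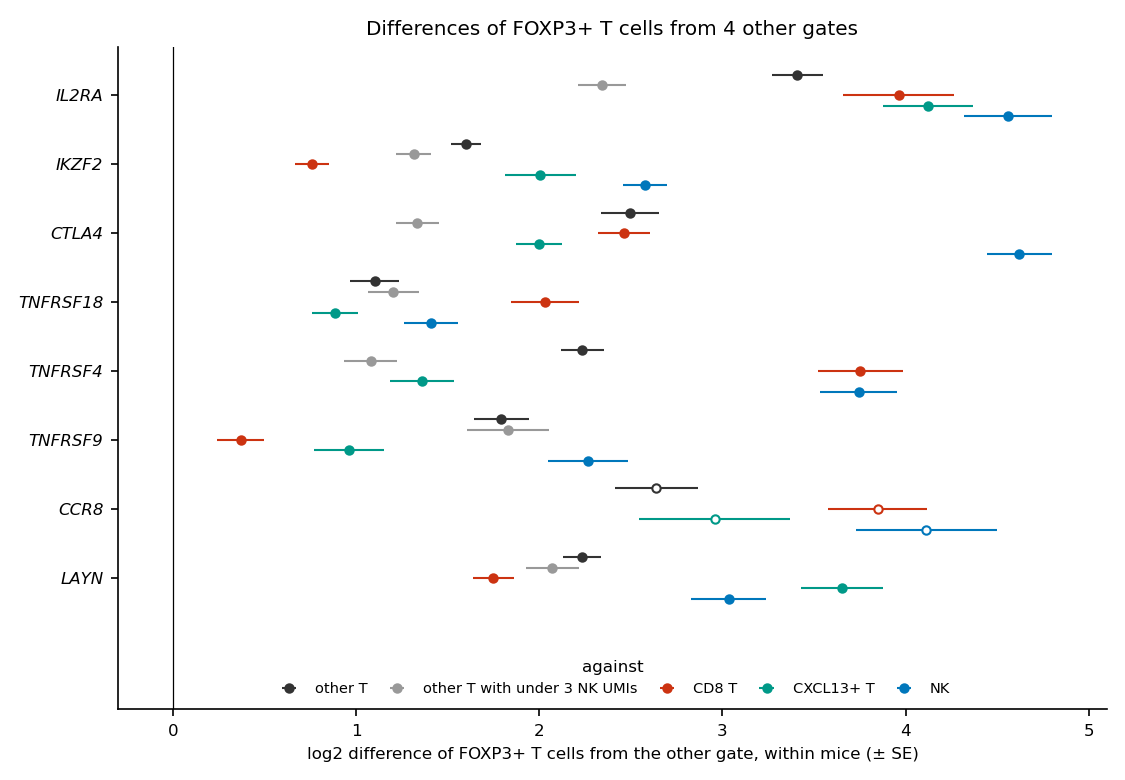
Log2 difference of FOXP3+ T cells from 5 other cell sets (horizontal axis, points with SE) for the 8 genes that no gate used; open points are CCR8, fitted without the filter on low counts. Every point lies above 0, from 0.37 for TNFRSF9 against CD8 T cells to 4.62 for CTLA4 against NK cells. IL2RA, CTLA4 and LAYN against NK cells, and LAYN against CXCL13+ T cells, are a description, since they passed the filter through the FOXP3+ gate.

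The share of cells with each member was also counted. To compare cells of unequal depth, each cell was thinned to 1500 UMIs, which left out 18 FOXP3+ cells and 181 other T cells that were shallower. IKZF2 was then found in 73.5% of FOXP3+ cells, TNFRSF18 in 54.4%, TNFRSF4 in 49.3%, IL2RA in 45%, CTLA4 in 42.6%, LAYN in 24.9%, TNFRSF9 in 21.3% and CCR8 in 5.2%. Before thinning, the shares were 94.7% for IKZF2 and 72.8% for IL2RA, at a median of 6894 UMIs. In other T cells, the thinned shares were 34.6% for IKZF2, 32.9% for TNFRSF18, 14.7% for TNFRSF4 and 6.94% for IL2RA. In macrophages or monocytes, with a median of 7336 UMIs, the thinned shares ran from 0.102% for CCR8 to 7.16% for IKZF2. The thinned share of IL2RA in CXCL13+ T cells, 3.30%, and in NK cells, 3.17%, was near the 2.61% in macrophages or monocytes, with 0.778% in cDC2 and 1.34% in B cells, and no difference is read from it. FOXP3+ cells had UMIs of a median of 3 of the 8 genes after thinning, CXCL13+, CD8 and other T cells of 1, and NK cells of 0. At least 3 of the 8 were found in 65% of FOXP3+ cells, 10.6% of CXCL13+, 9.06% of CD8 and 11.3% of other T cells. These counts follow in part from the shares of the single genes, and whether the genes met in the same cells beyond that was not tested. The other T cells here include the 63.1% with 3 or more NK UMIs, and the thinned shares were not repeated without them.

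**Figure D4:**
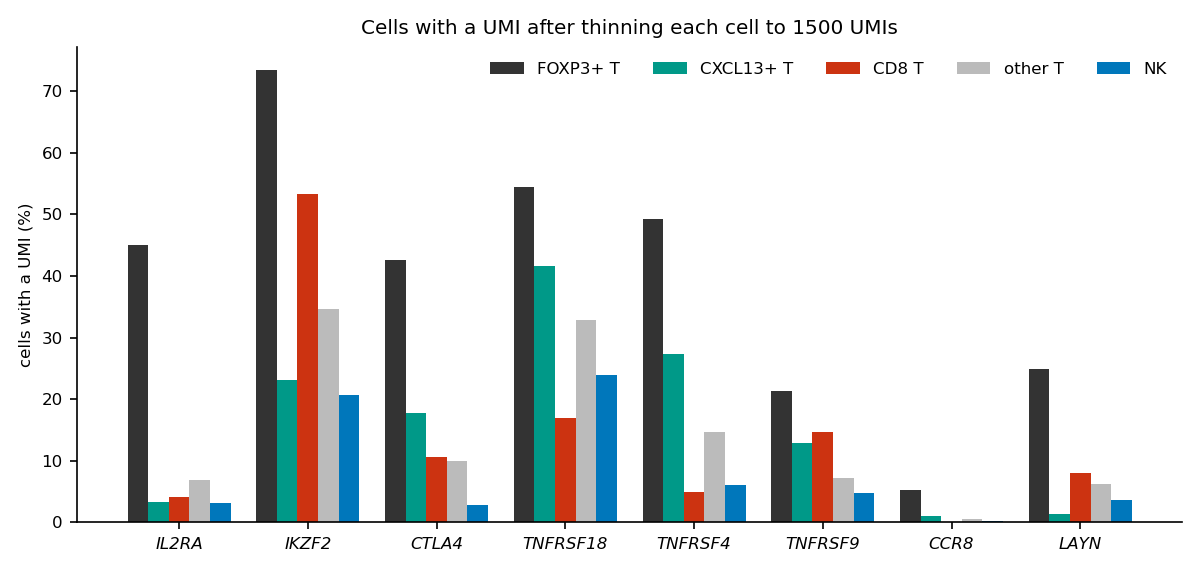
Percent of cells with at least 1 UMI (vertical axis) of each of 8 genes after thinning every cell to 1500 UMIs, in 4 T cell gates and NK cells. The FOXP3+ bar is the highest for each gene, and the distance to the next gate is widest for IL2RA, at 45% against 6.94% in other T cells.

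CXCL13+ T cells, the gate next to FOXP3+ cells, differed in 4 members from other T cells taken whole. The 2 higher calls did not hold against other T cells with fewer than 3 NK UMIs. Against other T cells in 9 mice, TNFRSF4 was higher by 0.86 ± 0.17 and TNFRSF9 by 0.88 ± 0.23 on the log2 scale (edgeR adjusted p = 0.000906 and 0.00879), while IL2RA differed by -0.90 ± 0.28 and LAYN by -1.37 ± 0.29 (edgeR adjusted p = 0.0267 and 0.00206). These were 2 members called higher and 2 lower of 7, beside 8.3% and 8.77% of 7960 genes. The direction for TNFRSF4 and CTLA4 changed with the set of other T cells compared. Against other T cells with fewer than 3 NK UMIs, CTLA4 was lower in CXCL13+ cells by 0.74 ± 0.16 (log2 difference -0.74, edgeR adjusted p = 0.00237), where it had been 0.20 ± 0.14. TNFRSF4 was at -0.10 ± 0.20 (edgeR adjusted p = 0.748), and TNFRSF9 at 0.81 ± 0.31 no longer passed (edgeR adjusted p = 0.0641). In reaction 1 alone, with 3 mice, none of the 4 calls held (edgeR adjusted p = 0.363 to 0.892). IL2RA was at -1.85 ± 0.29 and IKZF2 at -0.64 ± 0.20 against other T cells with fewer than 3 NK UMIs (edgeR adjusted p = 0.000113 and 0.0267), TNFRSF18 was at 0.39 ± 0.18 (edgeR adjusted p = 0.116), and LAYN did not pass the filter there. The call of IL2RA was also lost (edgeR adjusted p = 0.0505 to 0.0793) at the hashtag quantile 0.95, in reaction 2 alone and without any 1 of untreated mice 4, 5 and 6 and maraviroc mice 3, 4 and 6.

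CD8 T cells differed from other T cells in 14 mice by more IKZF2 (0.74 ± 0.09) and TNFRSF9 (1.31 ± 0.18) and by less TNFRSF18 (-0.85 ± 0.12) and TNFRSF4 (-1.43 ± 0.22) on the log2 scale (edgeR adjusted p = 6.65e-06, 2.45e-05, 2.41e-05 and 0.000103). That is 2 of 7 members called higher and 2 lower, beside 4.45% and 7.34% of 8601 genes. LAYN, at 0.41 ± 0.14, was just outside the threshold (edgeR adjusted p = 0.0509), and IL2RA and CTLA4 did not pass. Against other T cells with fewer than 3 NK UMIs, IL2RA was at -1.55 ± 0.30 and CTLA4 at -1.05 ± 0.16 (edgeR adjusted p = 0.000362 and 3.07e-05). There TNFRSF4 was at -2.63 ± 0.24, TNFRSF18 at -0.80 ± 0.16, TNFRSF9 at 1.52 ± 0.24 and IKZF2 at 0.59 ± 0.10, all still called, and LAYN at 0.37 ± 0.16 was not (edgeR adjusted p = 0.0853). In reaction 1 alone, the TNFRSF9 difference was 0.86 (edgeR adjusted p = 0.0617), and without the mouse as block that of TNFRSF18 was -0.82 (edgeR adjusted p = 0.0543).

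TNFRSF9 was also found in mature dendritic cells, the LAMP3-expressing activated state of dendritic cells. Over the 9 mice with at least 5 mature and 5 conventional dendritic cells, TNFRSF9 was at 45.4 to 138 CPM, with a median of 77.6 CPM, in mature cells and at 0 to 9.62 CPM, with a median of 0, in cDC1 and cDC2 together. Every mature value lay above every value of cDC1 and cDC2. This was so for 4.28% of the 3245 genes that passed the filter, but TNFRSF9 is not among them. That share is no background for it, and its separation is a description. TNFRSF9 was higher in 9 of 9 mice. No member passed the filter there, where 21% of genes were called higher and 20.8% lower, and 5 to 41 cells were summed per mouse and gate. Without the filter the log2 difference of TNFRSF9 was 4.42 ± 0.42. Its ligand TNFSF9 was at 150 CPM in plasmacytoid dendritic cells and at 16.5 CPM or less in dendritic cells of other kinds. In the same fit IL2RA was at 2.59 ± 0.70, TNFRSF4 at 1.95 ± 0.57 and IKZF2 at 1.79 ± 0.42, at levels of 37.4 CPM or less in mature dendritic cells. Like TNFRSF9, these genes have no call there. The IKZF2 difference holds for cDC1 and cDC2 together and not for cDC1. Before thinning, IKZF2 was found in 31.6% of 38 cDC1, 19.8% of 116 mature dendritic cells and 8.56% of 257 cDC2. The medians were 14069, 14049 and 14403 UMIs per cell.

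Of a list of 26 other genes known from regulatory T cells, 20 passed the filter against other T cells, 17 were called higher and 2 lower (19% and 18.3% of all genes tested), with a median log2 difference of 1.34 against 0.00061 over all genes. TNFRSF8 (CD30) had the largest difference, 2.83 ± 0.22, followed by IL1R2, a decoy receptor of interleukin-1, at 2.79 ± 0.27, ZBTB32 at 2.42 ± 0.23 and BATF, a transcription factor of effector regulatory T cells, at 2.05 ± 0.08. IL1R2 and ZBTB32 passed the filter neither in CD8 nor in CXCL13+ against other T cells. They were tested here through the FOXP3+ gate, where they are high, so their direction is a description. IKZF4 and CCR4, also among the 17, did not pass in CD8 against other T cells and may share this limit. IRF4, a partner of BATF, was called lower, at -1.01 ± 0.10, as was HLA-DRA at -0.64 ± 0.11 (edgeR adjusted p = 3.44e-08 and 7.86e-05), and ENTPD1 at 0.28 ± 0.12 did not pass (edgeR adjusted p = 0.0869). Against other T cells with fewer than 3 NK UMIs, 18 were tested, 15 higher and 2 lower, beside 874 and 970 of 6413 genes, with a median of 0.78, and ENTPD1, at 1.11 ± 0.11, was among the higher. IL1R2 was again among the higher there. CCR4 changed sign, from 0.78 ± 0.25 to -0.49 ± 0.19 (edgeR adjusted p = 0.0536), and ZBTB32 and IKZF4 did not pass the filter there. Of 10 genes of conventional T cells, 8 were tested. None was higher and 6 were lower (18.3% of all genes tested), led by IFNG at -3.73 ± 0.22, CCL5 at -3.39 ± 0.14 and CD40LG at -3.31 ± 0.37. IFNG and CD40LG did not pass the filter in the treatment comparison within FOXP3+ T cells. They were tested here through other T cells, where they are high, so their direction is a description. IL7R, the interleukin-7 receptor, was at -0.24 ± 0.23 (edgeR adjusted p = 0.463), but -1.32 ± 0.23 against other T cells with fewer than 3 NK UMIs (edgeR adjusted p = 7.35e-05), where 8 of 8 tested were lower. There CCL5 was at -0.85 ± 0.15 and CD40LG at -4.36 ± 0.30, and IFNG did not pass the filter. CD40LG and CCR7, both among those 8, did not pass within FOXP3+ T cells either, so their direction there is a description.

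The 10 genes with the largest difference of one sign in all 12 mice were, apart from FOXP3 itself, all lower in FOXP3+ cells. They were PDGFD, PLXNA4, PTGDR, CRTAM, STYK1, CD244, GAB1, ZNF683 and TXK, at -6.77 to -4.85 on the log2 scale, several of them known from NK and cytotoxic T cells. None of these 9 passed the filter on low counts when other T cells were limited to those with fewer than 3 NK UMIs. They were tested through other T cells taken whole, where they are high, so their direction is a description.

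Across 11 gates, the genes whose levels on the log2(CPM + 1) scale were most like those of a member among 11939 genes included ICOS for CTLA4 (Pearson's r = 0.982), CD70 for TNFRSF9 (r = 0.975), TBX21 for TNFRSF18 (r = 0.975), GATA3-AS1 for CCR8 (r = 0.970) and AKTIP for IL2RA (r = 0.971). For FOXP3 they were CGA (r = 0.929), CPA6 and IL1RL1. Among the members, LAYN and CTLA4 had r = 0.95 and FOXP3 and TNFRSF18 r = 0.44. FOXP3 is 0 by the gates in CXCL13+ and other T cells, which bears on each of its values. The values describe 11 points that share 2 reactions and differ in depth, and they carry no test.

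The treatment comparison asked whether these genes differed between maraviroc and untreated mice. No member was called in all T cells, in FOXP3+ T cells or in NK cells, and neither was any other gene (0% of 11346, 7557 and 6223 genes by edgeR, with 501, 304 and 142 at an unadjusted p under 0.05). DESeq2 called 0, 1 and 0 genes. In all T cells, FOXP3 was at 0.930 to 148 CPM, with a median of 49.2 CPM, in 7 untreated mice and at 40.4 to 163 CPM, with a median of 120 CPM, in 7 maraviroc mice. The groups overlapped, and the log2 difference was 0.59 ± 0.52 (edgeR adjusted p = 0.964). IL2RA followed it, with medians of 69.4 and 211 CPM and a log2 difference of 0.51 ± 0.54, and CTLA4 was at 0.33 ± 0.47, TNFRSF4 at 0.25 ± 0.42 and LAYN at -0.03 ± 0.23. In reaction 1 alone, FOXP3 was at -0.25, IL2RA at -0.47, CTLA4 at -0.29 and TNFRSF4 at -0.48, and in reaction 2 alone at 1.02, 0.72, 0.54 and 0.54, none of them called.

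Within the FOXP3+ gate, the estimated difference of IL2RA was smaller than in all T cells. Each cell there has at least 1 FOXP3 UMI by the gate, so FOXP3 is a description in this comparison. FOXP3+ T cells of 5 untreated mice and 7 maraviroc mice had FOXP3 at a median of 440 and 419 CPM, a log2 difference of -0.01 ± 0.13, and IL2RA at a median of 595 and 610 CPM, a difference of -0.05 ± 0.26. CTLA4, TNFRSF18, TNFRSF4, TNFRSF9, CCR8 and LAYN had differences of -0.31 to -0.14 with SE of 0.14 to 0.30, none past the threshold (edgeR adjusted p = 0.9999 for each). For the 2 untreated mice left out, 1 FOXP3+ cell each was found.

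In FOXP3+ T cells of reaction 1, IKZF2 was at 656, 753 and 883 CPM in untreated mice and at 1019, 1288 and 1305 CPM in maraviroc mice, the first and last of these from 14 and 12 cells. In reaction 2 it was at 1460 and 1471 CPM in untreated and at 1304 to 1560 CPM in 4 maraviroc mice. Pooled, the IKZF2 difference was 0.33 ± 0.18 (edgeR adjusted p = 0.9995). The treatment difference of IKZF2 in reaction 2 minus that in reaction 1 was -0.71 ± 0.20, which did not pass over 7557 genes (edgeR adjusted p = 0.462).

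The share of FOXP3+ cells among T cells varied widely between mice. In untreated mice it was 0.862% to 34.0%, with a mean of 13.5% ± 11.4 (SD, n = 7), and in maraviroc mice 6.86% to 35.3%, with a mean of 22.8% ± 11.8 (SD, n = 7). The difference of 9.26 percentage points was within the spread of the mice (two-sided exact permutation test, p = 0.158 over 3432 regroupings). The reactions differed in this: maraviroc minus untreated was -1.08 points in reaction 1 (exact permutation p = 0.829) and 16.2 points in reaction 2 (exact permutation p = 0.114 over 35 regroupings). In reaction 2, the 4 maraviroc mice were at 25.8% to 35.3%, and the untreated mice were at 1.09%, 11.4% and 34.0%. The untreated mice 2 and 7, with 1 FOXP3+ cell of 116 and 92 T cells, had exact 95% binomial intervals of 0.0218% to 4.71% and 0.0275% to 5.91%, which cover counting error only. With each cell thinned to 1500 UMIs the means were 7.62% and 11.51% (exact permutation p = 0.298). The T cells counted here include other T cells with 3 or more NK UMIs, 745 in reaction 1 and 505 in reaction 2. All other T cells made up 75.9% and 69.6% of T cells in untreated mice 2 and 7 and 61.9% and 68.1% in maraviroc mice 1 and 2. These were the mice with the lowest FOXP3+ shares, and the remaining mice were at 27.4% to 49.4%. The share without the cells with 3 or more NK UMIs was not tested.

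**Figure D5:**
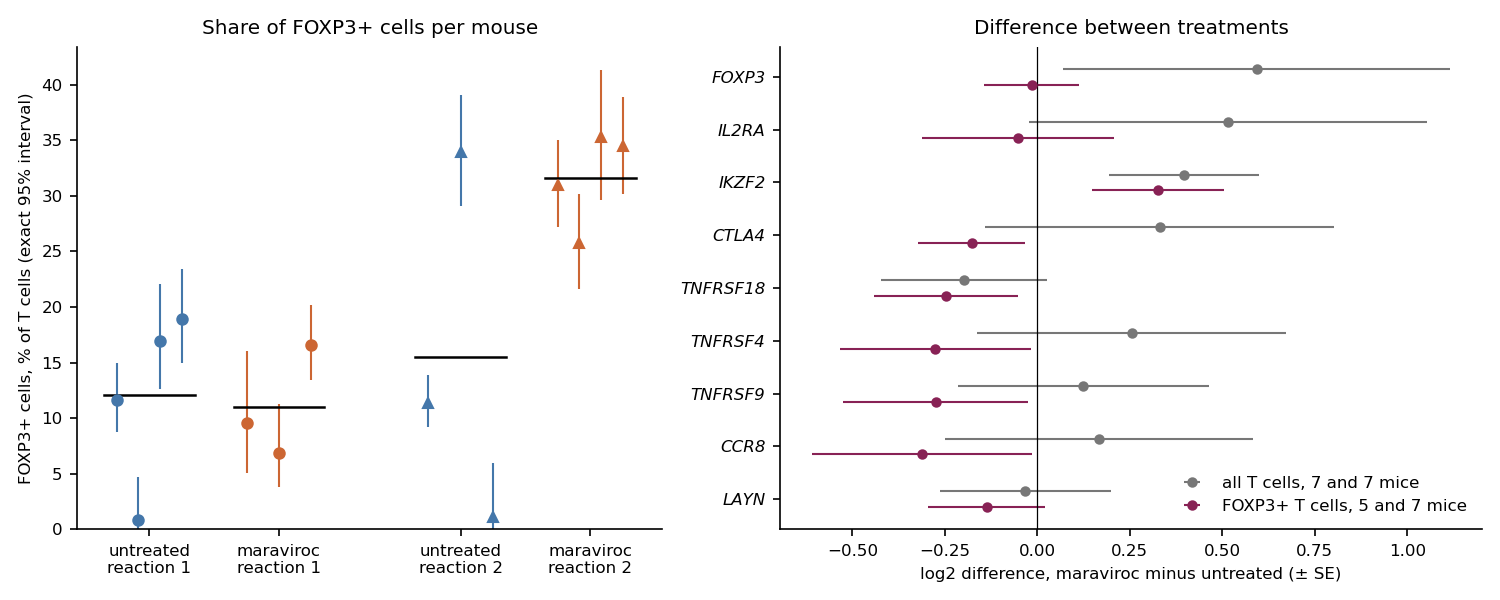
Left, percent of T cells that were FOXP3+ in each mouse (vertical axis, exact 95% binomial intervals; black lines are means), by treatment and reaction. Right, log2 difference of maraviroc from untreated (horizontal axis, with SE) for the 9 genes in all T cells and in FOXP3+ T cells. The untreated mice of reaction 2 span 1.09% to 34.0%, and none of the 18 differences passed the edgeR threshold. FOXP3 in FOXP3+ T cells is a description, since the gate uses FOXP3.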

How the data were processed

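The deposited files are gene and hashtag counts, as raw UMIs per barcode, that the authors made with Cell Ranger 9.0.1 on GRCh38. Their notes also name Seurat 5.1.0. Treatment and mouse number come from the hashtag names. All barcodes were assigned to mice with HTODemux (Seurat 5.3.0, R 4.3.3, quantile 0.99), which also removes doublets between mice but not within a mouse. Singlets with 601 to 6000 genes and under 12.5% mitochondrial UMIs were then kept. Gates used marker UMIs, and no annotation by the authors was used. UMIs were summed per mouse and gate (at least 10 cells, 5 for dendritic cells) and tested with the quasi-likelihood test of edgeR 4.0.16 (TMM factors, filterByExpr, Benjamini-Hochberg adjustment, threshold 0.05). SE values are the log2 difference over the root of F. The mouse was a block within mice, since paired gates came from the same animal (median correlation of own-mouse deviations 0.0615 to 0.311); no block was used for treatment. DESeq2 1.42.0 was an alternative. Shares were compared by exact permutation over mice. In simulated counts for FOXP3+ against other T cells (8194 genes), 90 of 93 genes changed by 1 on the log2 scale were found, with 11 false calls, and for maraviroc in FOXP3+ T cells (7399 genes) 81 of 95, with 6 false calls. For maraviroc in all T cells (11202 genes) 73 of 98 were found, with 10 false calls. FOXP3, IL2RA and CTLA4 had SE of 0.47 to 0.54 in that comparison, so a change of 1 in them could be missed. Replicates are mice, and whether they shared a graft donor is not given in the sources used here.

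The 9 genes, the gates and the lists (regulatory T, conventional T, ligands and receptor chains) were chosen with earlier results of these data known. Named genes were the members, up to 4 per list with the largest and smallest difference, the 10 genes with the largest difference of one sign in every mouse, and the 3 genes most like each member. Genes named outside these ranks within a list were chosen after their values were seen. Alternatives were the filter, hashtag and gate settings, DESeq2, the block, each mouse or reaction left out and, added after the data had been seen, other T cells with fewer than 3 UMIs over KLRF1, NCR1, KLRD1, GNLY and NKG7, and all barcodes without hashtag calls.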

Additional observations from a re-analysis of the deposited data

Results flagged for a closer look

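In 4 of 54 groups of mice, 1 mouse lay far from the others by Dixon's criterion, which chance meets in about 1 in 20 groups. CTLA4 in FOXP3+ T cells was at 583 CPM in untreated mouse 6 and at 387 to 431 CPM in the other untreated mice (n = 5). TNFRSF4 in FOXP3+ T cells was at 126 CPM in maraviroc mouse 1, which had 12 such cells, and at 528 to 746 CPM in the other maraviroc mice (n = 7). IKZF2 in NK cells was at 347 CPM in untreated mouse 7 and at 154 to 198 CPM in the other untreated mice (n = 7). TNFRSF18 in NK cells was at 375 CPM in maraviroc mouse 2 and at 182 to 234 CPM in the other maraviroc mice (n = 7).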

How the results depend on the processing

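Of 36 member differences called within mice, 741 of 765 values under the alternatives kept their sign and their side of the threshold, 23 lost the call and 1 reversed; the cause of the changes was not tested. With other T cells of fewer than 3 NK UMIs, the genes called numbered 1844 against FOXP3+ cells and 2304 against CD8 T cells, and the log2 differences of CTLA4 (-0.74) and TNFRSF4 (-0.10) in CXCL13+ and of CTLA4 (-1.05) in CD8 T cells reversed. With a T cell gate at 3 UMIs, CTLA4 in CD8 against other T cells was -0.040. Without the filter, 5206 genes were called in FOXP3+ against NK cells, 1661 in CD8 against other T cells, 2521 in mature against conventional dendritic cells and 35 for maraviroc in FOXP3+ T cells, where DESeq2 and the hashtag quantile 0.95 each called 1. Without the mouse block, the pairing, 363 genes were called in CD8 against other T cells, and 2801, 3066, 1910 and 3129 in FOXP3+ against other T, CD8 T, CXCL13+ T and NK cells; with the reaction as block, maraviroc called 0. For maraviroc, IL2RA in FOXP3+ T cells turned to 0.048 with the gate at 2 UMIs and 0.018 with the FOXP3 gate before the CD8 gate, and in NK cells TNFRSF4 turned to 0.082 and TNFRSF9 to 0.020 at the quantile 0.95.

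With 1 mouse or 1 reaction left out, genes called ranged from 1348 to 3150 (FOXP3+ against other T), 1192 to 3437 (CD8 T), 421 to 1955 (CXCL13+ T), 2363 to 3244 (NK), 103 to 1422 (CXCL13+ against other T), 236 to 1179 (CD8 against other T), 222 to 1548 (dendritic cells) and 0 to 1 (maraviroc in FOXP3+), the lowest of most in reaction 1 alone. The share difference ranged from -1.08 to 16.2 points, and the share without untreated mouse 6 had a difference of 12.7 (exact permutation p = 0.0519). CTLA4 in CD8 against other T cells ranged from -0.12 to 0.27 and IKZF2 in CXCL13+ against other T cells from -0.69 to 0.11. For maraviroc in all T cells, FOXP3 ranged from -0.25 to 1.02, IL2RA from -0.47 to 1.09, CTLA4 from -0.29 to 0.61, TNFRSF18 from -0.31 to 0.0076, TNFRSF4 from -0.48 to 0.60, TNFRSF9 from -0.22 to 0.32, CCR8 from -0.60 to 0.71 and LAYN from -0.56 to 0.24. In FOXP3+ T cells, IL2RA ranged from -0.45 to 0.29, IKZF2 from -0.060 to 0.66 and CCR8 from -0.50 to 0.15, and in NK cells IKZF2 from -0.24 to 0.16, TNFRSF18 from -0.24 to 0.10 and TNFRSF9 from -0.57 to 0.19. Low counts limit CCR8, and 12 to 14 FOXP3+ cells limit maraviroc mice 1 and 2.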
